A study of Homo sapiens with 6 samples.

Results

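The genes described here encode the protein tyrosine phosphatases of the PTPN (non-receptor) and PTPR (receptor-type) series and the dual-specificity phosphatases of the DUSP series, measured in NB4 cells during treatment with all-trans retinoic acid (ATRA). They were chosen by gene symbol alone: DUSP, PTPN or PTPR followed by a digit or letter in the platform annotation. The rule also took in PTPRCAP, a PTPRC-associated protein that is no phosphatase and is counted with the rest. Antisense (5) and pseudogene (1) symbols were left out, which gave 58 genes with 146 probe sets out of 19775 genes on the array. NB4 cells are an established human line of acute promyelocytic leukaemia with the PML-RARA fusion gene, which all 6 samples share. The groups were cells harvested 4, 12, 24, 48 and 72 h after 1e-06 M ATRA, a ligand of retinoic acid receptors, and untreated cells (0 h). There was 1 array per group, so no value has a replicate, and hours in ATRA cannot be told apart from hours in culture.

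Protein tyrosine phosphatases remove phosphate from tyrosine residues and so oppose tyrosine kinases, and dual-specificity phosphatases also act on serine and threonine. The MAP kinase phosphatases among the DUSP genes switch off ERK, p38 and JNK, and several of them are themselves transcribed in answer to MAP kinase signalling, which makes them feedback genes. In blood cells the receptor-type phosphatase PTPRC (CD45) sets the activity of SRC-family kinases. The cytoplasmic phosphatases PTPN6 and PTPN11 carry SH2 domains, by which they dock to phosphorylated receptors and adaptors.

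Values are log2 probe set summaries, and the probe set with the largest average over the arrays stands for its gene. A gene was kept if it reached 3.66, the median of the whole table, on at least 1 array. Of the 58 phosphatase-family genes, 44 were kept. The other 14 stayed below the filter on all 6 arrays in the probe set that stands for them and have no comparison: DUSP19, DUSP21, DUSP23, PTPN3, PTPN5, PTPN14, PTPN20, PTPRB, PTPRD, PTPRK, PTPRM, PTPRN, PTPRR and PTPRZ1. Of these, PTPN3 alone has a further probe set that reached the filter, below it on the 5 ATRA arrays and at 4.22 in untreated cells. Among the kept genes, DUSP9 and DUSP26 passed through their highest arrays and had a mean below the filter. Of the cell identity markers, the promyelocyte genes MPO, AZU1, PRTN3 and CTSG were all above the filter in untreated cells. MPO read 10.92 at 72 h against 12.90 in untreated cells, and CTSG read 4.40 against 6.83, while AZU1 and PRTN3 at 72 h were within 0.31 of untreated. All 5 monocyte and macrophage markers (CD14, MRC1, MSR1, VCAN and C1QA) stayed at or below 3.59 and the T cell markers CD3D, CD3E and CD2 at or below 4.55. The neutrophil markers ITGAM, CYBB, CSF3R and S100A8 were higher on all ATRA arrays than in untreated cells, and FCGR1A stayed below the filter. Of the B cell markers, MS4A1 stayed below the filter and CD79A lay between 5.36 and 6.82. The erythroid markers EPOR and HBB reached 7.55 and 4.77. Of the fibroblast or epithelial markers, EPCAM, COL1A1 and KRT18 reached 5.86, 5.56 and 4.61, and COL3A1 stayed below the filter. Array medians lay between 3.64 and 3.69. The spiked bioC control had a mean of 8.06 at 0 and 12 h but 7.04 at the other times, and the 5' control of the large ribosomal RNA read 6.77, 6.33, 10.32, 7.48, 9.51 and 9.63 in order of time. The part of these controls and of the marker changes in the results below was not tested.

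Over the 6 arrays, 6 of the 44 kept phosphatase-family genes rose and 4 fell. DUSP5, DUSP1 and DUSP6, all MAP kinase phosphatases, rose together with PTPRC, PTPN22 and PTPN6, which act on receptor and SRC-family kinase signalling in leukocytes. DUSP3, DUSP14, PTPN11 and PTPRCAP, the last of which is no phosphatase, fell. The test was a straight line over time order fitted to all 13594 kept genes with limma, with calls made at adjusted p under 0.05 (Benjamini-Hochberg). The 6 rising genes are 13.6% of the kept members, where 8.33% of all genes rose, and the 4 falling genes are 9.09%, where 9.86% of all genes fell. At an unadjusted p under 0.05, in either direction, there were 16 members (36.4%), where 32.7% of all genes had one, so their share is near that of all genes. Across all 44, the median log2 difference at 72 h was 0.21, against -0.06 over all kept genes, and -0.35 against -0.62 when the arrays were shifted to equal spiked controls without bioC. With a shift to all spiked controls the 6 rises were called and none of the 4 falls was. With log2(hours + 1) in place of time order only PTPN22, PTPN6 and DUSP3 were called, and DUSP5, DUSP6 and PTPRC had adjusted p-values of 0.0504, 0.0507 and 0.0611. In bulk RNA, a change in each cell cannot be told apart from a change in the share of cells that carry the transcript.

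**Figure D1:**
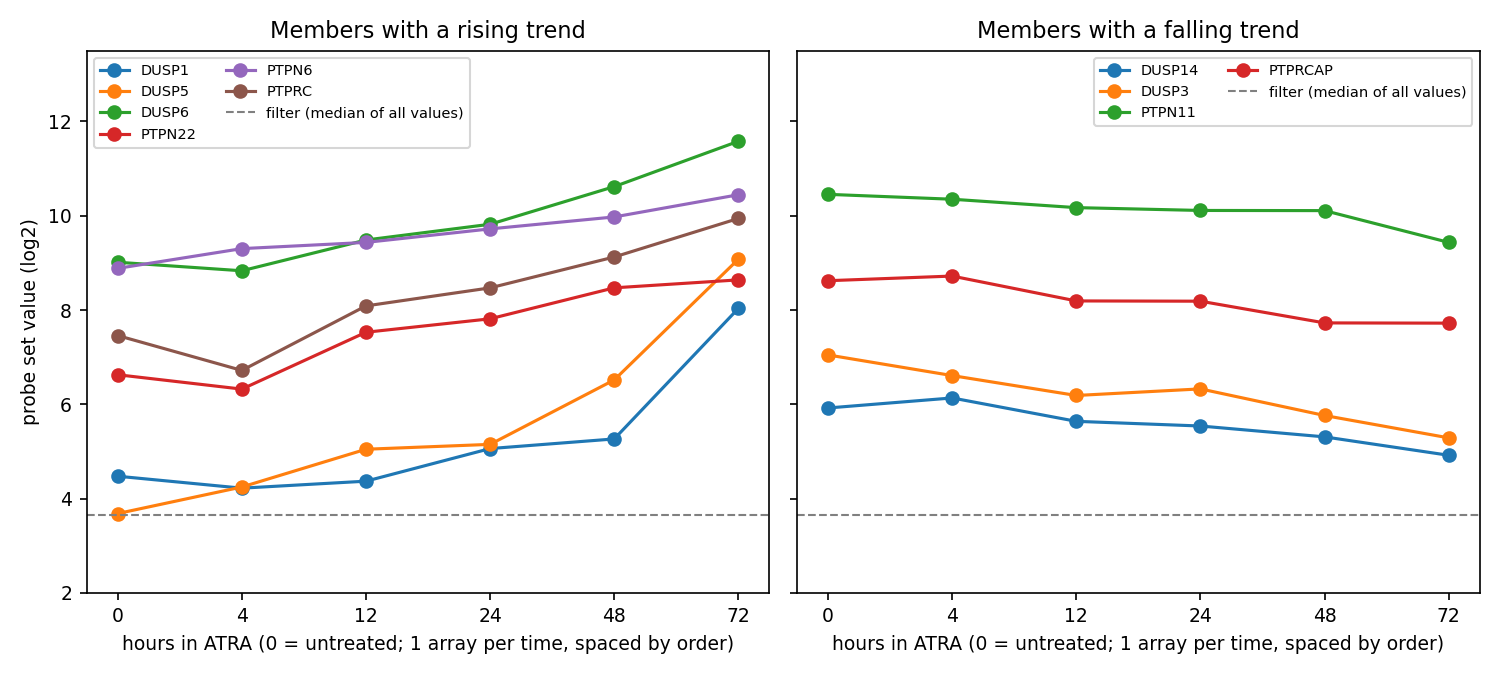
Probe set values (log2, y axis) of the 10 phosphatase-family genes with a called trend, against hours in ATRA (x axis, spaced by order, 0 is untreated), 1 point per array. Left, the 6 rising genes, with DUSP5 at 9.08 and DUSP1 at 8.03 on the 72 h array. Right, the 4 falling genes, with DUSP3 at 5.29 and PTPN11 at 9.43 at 72 h.

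Promoters of 4 rising genes are shown because their starts differ in base composition and in short motifs. Picked for that difference, they do not stand for the other called genes. Each run below holds the 250 bases before the gene's start on the gene's own strand, 5′ to 3′, from RefSeq on GRCh38.p14, a table that held 7 of the 10 called genes. Capitals mark matches on either strand to TGACG, the core of a cyclic AMP response element, to its full form TGACGTCA (which contains TGACG on both strands), to CCAAT, to GAGGAA, a core bound by PU.1 and other ETS factors, or to 2 further motifs without a match in these 4 windows, TTCNNNGAA (bound by STAT factors) and AGGTCA (a nuclear receptor half-site). The runs lie at chr5:172771196-172771445 on the minus strand (DUSP1), chr12:89352502-89352751 on the minus strand (DUSP6), chr1:198638790-198639039 on the plus strand (PTPRC) and chr1:113871713-113871962 on the minus strand (PTPN22).
DUSP1: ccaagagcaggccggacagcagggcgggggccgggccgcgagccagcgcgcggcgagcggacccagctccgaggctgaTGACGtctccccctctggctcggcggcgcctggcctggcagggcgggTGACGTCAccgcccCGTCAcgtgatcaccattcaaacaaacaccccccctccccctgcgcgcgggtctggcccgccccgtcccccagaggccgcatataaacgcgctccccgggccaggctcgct
DUSP6: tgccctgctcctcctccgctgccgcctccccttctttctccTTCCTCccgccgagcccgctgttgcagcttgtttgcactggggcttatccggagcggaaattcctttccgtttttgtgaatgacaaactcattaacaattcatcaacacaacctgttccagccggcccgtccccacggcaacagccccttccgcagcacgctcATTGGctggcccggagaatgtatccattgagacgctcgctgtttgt
PTPRC: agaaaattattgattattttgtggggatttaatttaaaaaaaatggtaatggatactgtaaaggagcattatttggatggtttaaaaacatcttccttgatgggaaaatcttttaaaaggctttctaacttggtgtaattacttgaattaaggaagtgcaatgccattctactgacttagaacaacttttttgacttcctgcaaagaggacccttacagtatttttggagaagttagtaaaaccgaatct
PTPN22: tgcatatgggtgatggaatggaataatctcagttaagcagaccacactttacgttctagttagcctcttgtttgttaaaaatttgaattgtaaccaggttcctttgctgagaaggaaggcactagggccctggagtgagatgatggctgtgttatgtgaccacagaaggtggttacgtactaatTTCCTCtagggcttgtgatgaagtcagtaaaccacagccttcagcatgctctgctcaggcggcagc
The DUSP1 run is 74.4% G and C and the DUSP6 run 57.2%, while the PTPRC run has 31.2% and the PTPN22 run 45.6%. The median over all 35116 promoter windows of this length was 58.0%. DUSP1 holds 4 matches to TGACG, 2 of them within its single TGACGTCA, a motif found in 1.65% of all windows. Kept genes without a called trend also hold TGACGTCA: DUSP8 has 2 matches, and PTPRS and PTPRU have 1 each. TGACG itself occurs in 21.2% of all windows, CCAAT in 32.0%, GAGGAA in 23.6%, AGGTCA in 12.1% and TTCNNNGAA in 6.57%. DUSP6 holds 1 match to CCAAT and 1 to GAGGAA, PTPN22 holds 1 to GAGGAA, and PTPRC has no match to any of them. PTPN6, DUSP3 and DUSP14, also called, had promoters that are not shown. The windows of the rising PTPN6 had 66.4% G and C, with 1 match to CCAAT, and 59.6%. Of the falling genes, DUSP3 (73.6%) held 1 match to TGACG and 1 to TTCNNNGAA, and DUSP14 (82.8%) held none of the motifs. These are matches of letters and do not show a bound site.

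Among the 10 MAP kinase phosphatases, all of which were kept, 3 rose, none fell and 7 had no called trend. For this and the classes below, the shares over all kept genes are 8.33% rising and 9.86% falling. No class was tested against them. Their median log2 difference at 72 h was 0.49, against -0.06 over all kept genes. It was -0.07 (all kept genes -0.62) when the arrays were shifted to equal spiked controls without bioC. With the shift to all spiked controls it was 1.16 (all kept genes 0.60). Each shift moves all genes of an array by the same amount. DUSP5, a nuclear phosphatase selective for ERK, read 3.68, 4.25, 5.05, 5.15, 6.52 and 9.08 at 0, 4, 12, 24, 48 and 72 h. Each array was higher than the one before, and 2.56 of the total difference of 5.40 (log2) came between 48 and 72 h. DUSP5 was 42.1-fold higher at 72 h than in untreated cells and rose by 0.97 ± 0.14 log2 units per step (SE, limma adjusted p = 0.00482). Its untreated value of 3.68 lies just above the filter, so the size of this fold is uncertain. DUSP5 has 1 probe set.

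DUSP6, the cytoplasmic ERK phosphatase and a classic readout of ERK activity, was already well above the filter in untreated cells. It read 9.01, 8.83, 9.49, 9.82, 10.62 and 11.58 at 0, 4, 12, 24, 48 and 72 h. Only the 4 h array lay below the untreated one, and DUSP6 was 5.92-fold higher at 72 h than in untreated cells. The slope was 0.53 ± 0.07 per step (limma adjusted p = 0.00371). Its 3 probe sets moved alike, with log2 differences at 72 h of 2.57, 2.49 and 2.21.

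DUSP1, an immediate early phosphatase that acts on p38, JNK and ERK, read 4.47, 4.22, 4.37, 5.06, 5.27 and 8.03 at 0, 4, 12, 24, 48 and 72 h. The 72 h array stands apart from the other 5, which lie between 4.22 and 5.27. DUSP1 was 11.8-fold higher at 72 h than in untreated cells and 6.82-fold higher than at 48 h. The slope was 0.62 ± 0.16 per step (limma adjusted p = 0.0358), and it lost its call without the 4, 12 or 72 h array, with a slope of 0.24 without the last. A further DUSP1 probe set above the filter differed from untreated by 0.18 at 72 h, so 1 of these 2 shows the rise.

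The other MAP kinase phosphatases had no called trend. DUSP16, which acts on JNK and p38, read 5.21, 4.51, 5.17, 5.83, 5.35 and 6.26 in order of time. It was 2.08-fold higher at 72 h than in untreated cells after being 1.62-fold lower at 4 h (limma adjusted p = 0.0821). Of its 3 probe sets above the filter, 2 were higher by 1.06 and 1.37 at 72 h and the third by 0.03. DUSP10, which also acts on JNK and p38, read 4.97, 4.23, 3.66, 3.79, 3.91 and 4.12 at 0, 4, 12, 24, 48 and 72 h. It was highest in untreated cells and lowest at 12 h, by 2.48-fold (limma adjusted p = 0.256), and its second probe set was also highest in untreated cells. DUSP2, DUSP4, DUSP7, DUSP8 and DUSP9 stayed within 2-fold of untreated at all times, with 72 h differences from -0.60 (DUSP4) to 0.68 (DUSP2).

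**Figure D2:**
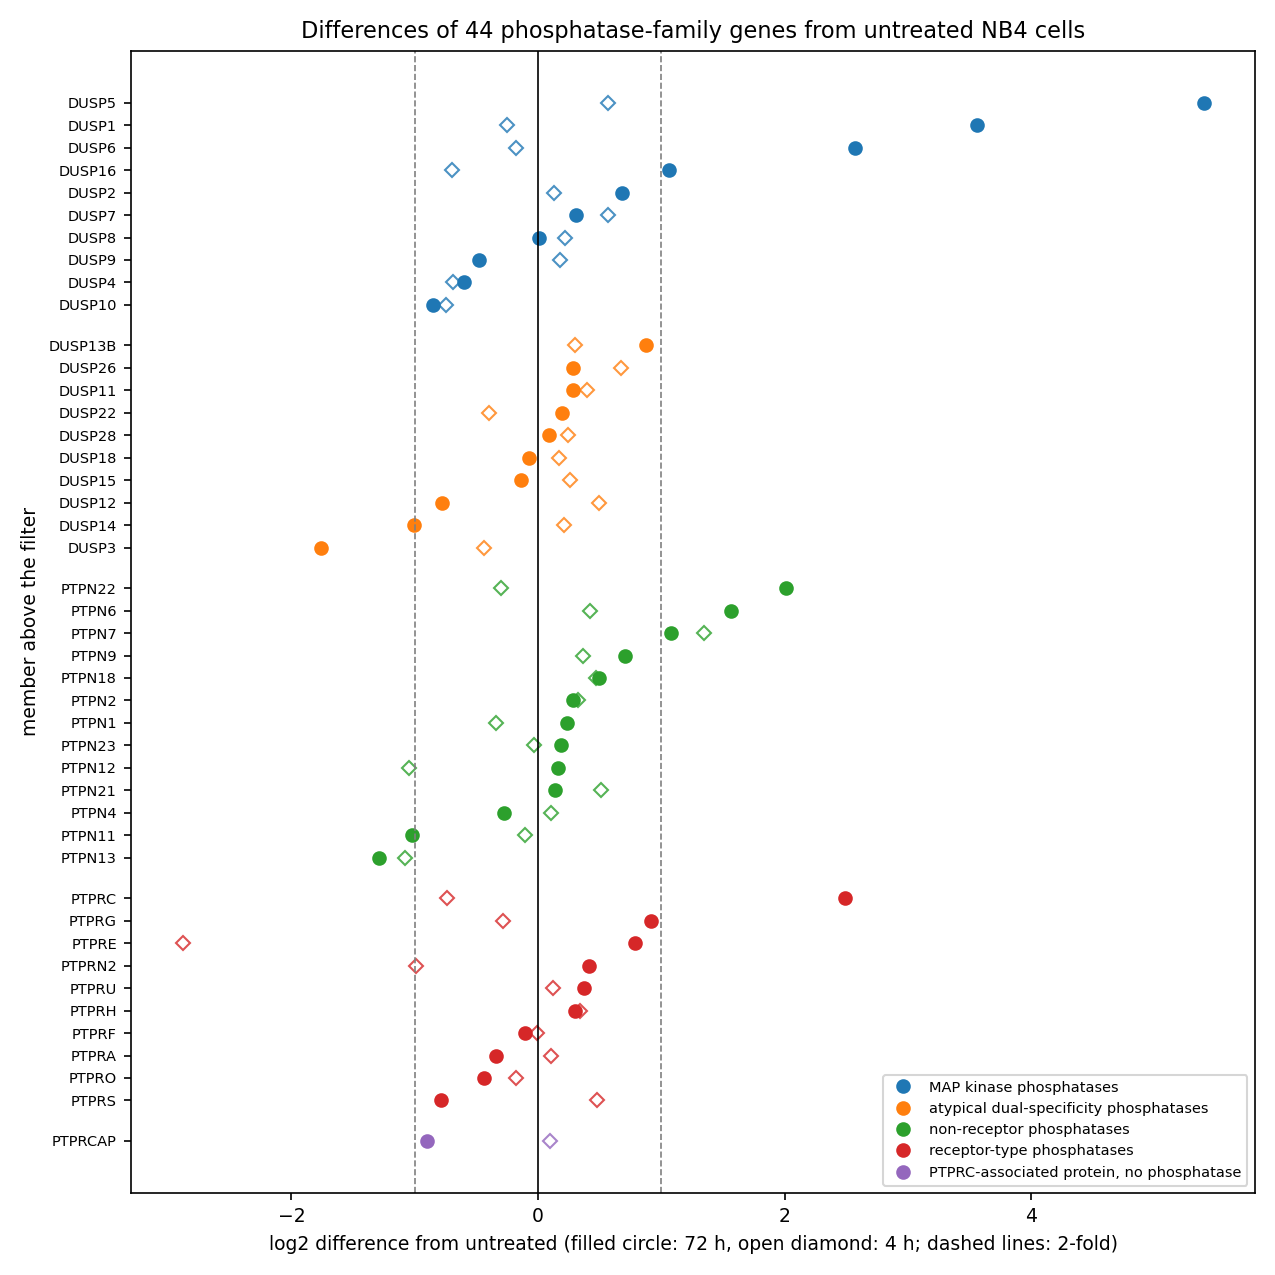
Log2 difference from untreated cells (x axis) for each of the 44 kept genes (y axis), grouped by role. Filled circles are 72 h, open diamonds 4 h, and dashed lines mark 2-fold. Values below the filter, such as PTPRE at 4 h, are plotted as measured. At 72 h, 8 genes lie past the right line and 4 past the left, and at 4 h 1 gene lies past the right line and 3 past the left.

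The atypical dual-specificity phosphatases are small enzymes without the docking domain of the MAP kinase phosphatases. Of 17 listed symbols 13 were measured and 10 kept, and none rose and 2 fell. The median difference of the 10 was 0.01 at 72 h, or -0.56 with the shift to controls without bioC and 0.67 with all controls. DUSP3, which can dephosphorylate ERK and JNK, read 7.05, 6.61, 6.19, 6.33, 5.76 and 5.29 at 0, 4, 12, 24, 48 and 72 h. All 5 ATRA arrays lay below the untreated one. DUSP3 fell by 0.32 ± 0.05 per step (SE, limma adjusted p = 0.00611), and at 72 h it was 3.39-fold lower than in untreated cells. Its other probe sets were below the filter at 72 h, against 4.60 and 4.40 in untreated cells, so they were lower by at least 0.94 and 0.74 (log2).

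DUSP14 read 5.92, 6.13, 5.64, 5.54, 5.31 and 4.92 at 0, 4, 12, 24, 48 and 72 h, so the 4 h array was the highest and each later one was lower than the last. It was 2.005-fold lower at 72 h than in untreated cells and fell by 0.22 ± 0.05 per step (limma adjusted p = 0.0186, range 0.00426 to 0.770 over the other settings), with no call without the 72 h array. The other 8 had no call. DUSP12 differed by -0.78 and DUSP13B by 0.87 at 72 h, and DUSP11, DUSP15, DUSP18, DUSP22, DUSP26 and DUSP28 by -0.14 to 0.28.

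Of 17 non-receptor phosphatases, all measured, 13 were kept. PTPN6 and PTPN22 rose, PTPN11 fell and 10 had no call. The median difference of the 13 was 0.24 at 72 h, or -0.33 with the shift to controls without bioC and 0.90 with all controls. PTPN6, the haematopoietic SH2-domain phosphatase that carries signals of inhibitory receptors, read 8.88, 9.30, 9.43, 9.72, 9.97 and 10.45 at 0, 4, 12, 24, 48 and 72 h. Each array was higher than the one before, with no jump at a single time. It was 2.95-fold higher at 72 h than in untreated cells and rose by 0.29 ± 0.04 per step (limma adjusted p = 0.00339). PTPN6 has 1 probe set.

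PTPN11, the widely expressed relative of PTPN6 that promotes RAS and ERK signalling, read 10.45, 10.35, 10.17, 10.11, 10.11 and 9.43 at 0, 4, 12, 24, 48 and 72 h. In this probe set, the values from 0 to 48 h lie within 0.35 of each other and the 72 h value is lower than all of them. PTPN11 was 2.03-fold lower at 72 h than in untreated cells and fell by 0.17 ± 0.04 per step (limma adjusted p = 0.0360), a call that only 1 of the 6 fits with an array left out kept, the one without 48 h. All 5 probe sets above the filter were lower at 72 h, by 0.59 to 1.59, but their courses before 72 h differed. One read 8.62, 7.49, 8.25, 7.41, 7.39 and 7.03 in order of time, and another 5.98, 5.02, 5.93, 4.43, 4.76 and 4.40. Both were thus lower at 4, 24 and 48 h than at 0 and 12 h, the times with the higher bioC control. Thus the relatives PTPN6 and PTPN11 had slopes of opposite sign, 0.29 and -0.17, whose difference was not tested.

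PTPN22, a lymphoid and myeloid phosphatase that works with the kinase CSK to restrain SRC-family kinases, read 6.63, 6.32, 7.53, 7.81, 8.47 and 8.64 at 0, 4, 12, 24, 48 and 72 h. The 4 h array was the lowest, and from 12 h on all arrays were above untreated. It was 4.03-fold higher at 72 h than in untreated cells, with a slope of 0.48 ± 0.07 per step (limma adjusted p = 0.00482). Its 3 probe sets above the filter were higher by 1.75 to 2.01 at 72 h.

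PTPN7, a haematopoietic phosphatase that binds and dephosphorylates ERK and p38, was the 1 kept gene of the family that was 2-fold or more higher at 4 h. It read 8.55, 9.90, 9.13, 9.15, 9.26 and 9.63 at 0, 4, 12, 24, 48 and 72 h. The 4 h array was the highest, 2.54-fold above untreated, and all later arrays lay between it and the untreated one, with 72 h 2.11-fold higher. PTPN7 had no called trend (limma adjusted p = 0.491), and its second probe set, which also passed the filter, differed from untreated by 0.52 at 4 h and by 0.69 at 72 h.

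PTPN12, a phosphatase of focal adhesion and cytoskeletal proteins, and PTPN13, a large phosphatase with FERM and PDZ domains, were 2.07-fold and 2.11-fold lower at 4 h than in untreated cells. PTPN12 read 8.19, 7.14, 7.65, 7.52, 7.68 and 8.35 at 0, 4, 12, 24, 48 and 72 h, and so was lowest at 4 h and near its untreated value at 72 h. Its second probe set above the filter was also lowest at 4 h. PTPN13 read 5.87, 4.80, 5.62, 5.32, 5.07 and 4.58 and was 2.44-fold lower at 72 h. Neither had a called trend (limma adjusted p = 0.691 for PTPN12 and 0.182 for PTPN13).

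PTPN1, which acts on the insulin receptor and JAK kinases, lay between 6.86 and 7.44 on the 6 arrays, and PTPN2, which acts on JAK and STAT proteins, between 7.46 and 8.21. Their slopes of 0.06 ± 0.05 and 0.05 ± 0.06 per step were not called (limma adjusted p = 0.493 and 0.670). The other kept genes of this class, PTPN4, PTPN9, PTPN18, PTPN21 and PTPN23, differed from untreated by less than 2-fold at all times, with 72 h differences from -0.27 (PTPN4) to 0.70 (PTPN9).

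Of 20 listed receptor-type phosphatases 17 were measured and 10 kept. PTPRC rose and 9 had no call. The median difference of the 10 was 0.34 at 72 h, or -0.23 with the shift to controls without bioC. PTPRC read 7.46, 6.72, 8.09, 8.47, 9.12 and 9.94 at 0, 4, 12, 24, 48 and 72 h. It was lowest at 4 h, 1.67-fold below untreated, and every later array was above untreated and above the one before. PTPRC was 5.59-fold higher at 72 h than in untreated cells and 9.34-fold higher than at 4 h, with a slope of 0.57 ± 0.09 per step (limma adjusted p = 0.00694). Of its other probe sets above the filter, 2 were higher by 1.74 and 2.23 at 72 h, and the third, below the filter in untreated cells, by at least 1.11.

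PTPRCAP, a transmembrane phosphoprotein that associates with PTPRC and is no phosphatase itself, went the other way. It read 8.62, 8.72, 8.19, 8.19, 7.73 and 7.72 at 0, 4, 12, 24, 48 and 72 h, so the values form 3 pairs of neighbouring times. PTPRCAP fell by 0.21 ± 0.05 per step (limma adjusted p = 0.0214), and it was 1.87-fold lower at 72 h than in untreated cells. The call was lost in 4 of the 6 fits with an array left out, those without 0, 4, 48 or 72 h, with adjusted p-values up to 0.0783.

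PTPRE, a receptor-type phosphatase that also exists as a cytosolic form in myeloid cells, had the largest difference of the family at 4 h. It read 6.18, 3.30, 4.89, 5.13, 5.81 and 6.97 at 0, 4, 12, 24, 48 and 72 h. The 4 h value lies below the filter, so PTPRE was at least 5.73-fold lower at 4 h than in untreated cells. It was 2.44-fold lower at 12 h and 2.08-fold lower at 24 h, and at 72 h it was 1.72-fold higher than in untreated cells and at least 9.87-fold higher than at 4 h. A straight line does not describe this course, and the slope was not called (limma adjusted p = 0.323). Within the 4, 24, 48 and 72 h arrays PTPRE rose by 0.90 per step (limma adjusted p = 0.0170). That set was chosen after the data were seen. It leaves out the untreated array and starts at the lowest value, so a rising slope follows in part from the choice of arrays. Of 16 fits other than the main one, 3 called the slope (limma adjusted p from 0.00434 to 0.893). The other 2 PTPRE probe sets stayed below the filter, so the course rests on 1 probe set.

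PTPRN2, a phosphatase-like protein of secretory granules in neuroendocrine cells, had a similar but shallower course. It read 8.29, 7.30, 6.99, 7.15, 7.79 and 8.70 at 0, 4, 12, 24, 48 and 72 h, and so was lowest at 12 h (2.46-fold below untreated) and highest at 72 h. Its 3 probe sets were lower at 4 h by 0.99, 0.05 and 1.08, and no trend was called (limma adjusted p = 0.647). PTPRO, a receptor-type phosphatase of podocytes and leukocytes, stayed between 10.51 and 10.96 in the probe set used. A further PTPRO probe set went the other way: it was below the filter from 0 to 48 h and read 5.41 at 72 h, at least 1.75 (log2) above untreated, so the probe sets disagree. PTPRA, PTPRF, PTPRG, PTPRH, PTPRS and PTPRU stayed within 2-fold of untreated at all times, with 72 h differences from -0.79 (PTPRS) to 0.92 (PTPRG).

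**Figure D3:**
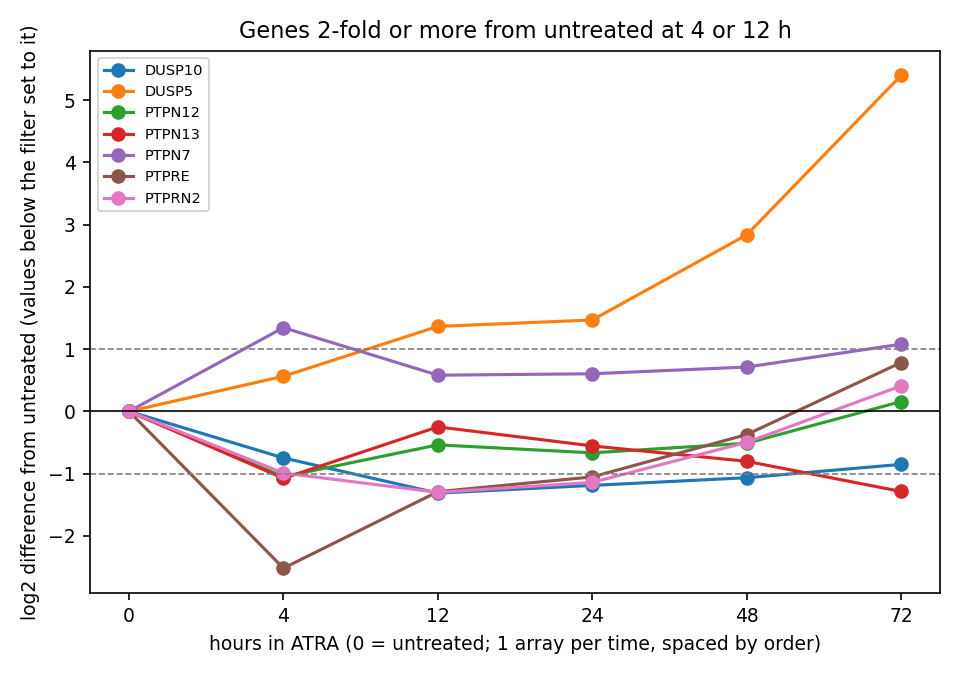
Log2 difference from untreated cells (y axis, values below the filter set to it) against hours in ATRA (x axis, spaced by order) for the 7 genes that differed by 2-fold or more at 4 or 12 h, 1 array per time. PTPRE is at least 2.52 below untreated at 4 h and 0.78 above untreated at 72 h, and PTPN7 and DUSP5 are the genes of the 7 above untreated at 4 h.

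Counted at 2-fold or more against untreated cells, the kept genes of the family were few at first and more at the last time. At 4 h 1 was higher and 3 were lower, or 2.27% and 6.82%, against 1.74% and 1.81% of all kept genes. At 12 h 1 (DUSP5) was higher and 3 (DUSP10, PTPRE and PTPRN2) were lower, against 2.3% and 1.93% of all genes. At 24 h DUSP5, PTPN22 and PTPRC were higher and the same 3 genes as at 12 h lower, against 3.35% and 1.99%. At 48 h DUSP5, DUSP6, PTPN22, PTPN6 and PTPRC were higher and DUSP10 and DUSP3 lower, against 5.83% and 4.49%. At 72 h 8 were higher (18.2%) and 4 lower (9.09%), against 10.9% and 12.2% of all genes. The comparisons share the untreated array, and single arrays allow no test of these shares.

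**Figure D4:**
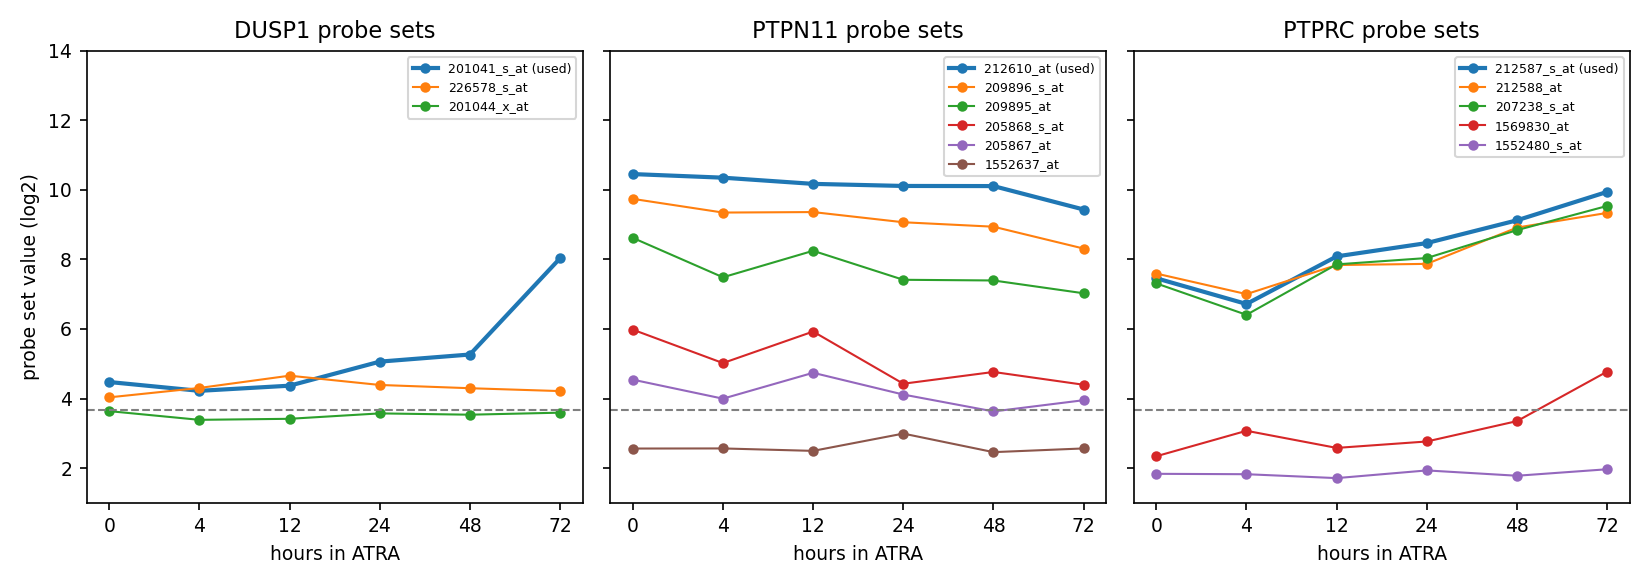
Values (log2, y axis) of every probe set of DUSP1, PTPN11 and PTPRC against hours in ATRA (x axis, spaced by order), with the one used for the gene as a thick line and the filter of 3.66 dashed. The DUSP1 probe sets part at 72 h, while those of PTPN11 and PTPRC above the filter share their direction from 0 to 72 h.

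Genes that feed into or act beside the phosphatases were read from lists by role. Over all kept genes 8.33% rose and 9.86% fell, and no list was tested against these shares. Of 19 MAP kinases and MAP kinase kinases, 15 were measured and kept, 1 rose and none fell. Their median difference at 72 h was -0.20, or 0.46 with the shift to all spiked controls and -0.77 without bioC. MAPK13, a p38 kinase, was 1.86-fold higher at 72 h than in untreated cells (limma adjusted p = 0.0481), and no gene of this list was 2-fold higher or lower at any time. Of 13 ERK feedback inhibitors and ERK-responsive genes, all kept, 3 rose and 2 fell. The median difference at 72 h was 0.36, or 1.02 with the shift to all spiked controls and -0.20 without bioC. FOS, an early ERK target, read 3.56, 3.56, 4.16, 5.36, 5.82 and 7.85 at 0, 4, 12, 24, 48 and 72 h and was at least 18.2-fold higher at 72 h (limma adjusted p = 0.00316). SPRY2, an inhibitor of receptor tyrosine kinase signalling, was 6.89-fold higher and EGR1 5.66-fold higher at 72 h (limma adjusted p = 0.00225 and 0.0496). EGR1 did not rise steadily. It read 6.95, 5.36, 8.18, 9.64, 8.61 and 9.45 in order of time, 1.59 (log2) below untreated at 4 h and highest at 24 h. SPRY4, a relative of SPRY2, was 2.34-fold lower and ETV4 2.09-fold lower (limma adjusted p = 0.0455 and 0.0404).

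Of 13 docking receptors and adaptors of PTPN6 and PTPN11, 12 were measured and 10 kept, and 5 rose and none fell. The median difference at 72 h was 1.97, or 2.64 with the shift to all spiked controls and 1.41 without bioC. SIRPA, an inhibitory receptor that recruits both phosphatases, read 5.79, 7.65, 7.80, 7.96, 9.24 and 10.24 at 0, 4, 12, 24, 48 and 72 h. All ATRA arrays were above untreated, and SIRPA was 21.9-fold higher at 72 h (limma adjusted p = 0.00254). The inhibitory receptors PILRA, CD300A and LILRB2 were 13.7-fold, 12.5-fold and 5.80-fold higher at 72 h, and the adaptor GAB3 was 2.66-fold higher. The related adaptor GAB2 went the other way and read 6.21, 5.22, 5.30, 5.03, 4.65 and 5.36 in order of time. It was below untreated on all ATRA arrays, without a called trend (limma adjusted p = 0.181). LILRB2 has near relatives that its probe set, of the kind prone to cross-hybridisation, may also read.

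Of 12 SRC-family kinases and CSK-linked genes, 9 were kept, 4 rose and none fell by trend. The median difference at 72 h was 0.46, or -0.10 with the shift to controls without bioC and 1.13 with all controls. FGR, a myeloid SRC-family kinase, was 127-fold higher at 72 h than in untreated cells, and LYN was 5.47-fold higher (limma adjusted p = 0.0191 and 0.0162). FYN, a SRC-family kinase, was 1.05, 1.03 and 1.13 (log2) below untreated at 12, 24 and 48 h, and MATK, a relative of CSK, was 2.08-fold lower at 72 h, without a called trend (limma adjusted p = 0.0689 and 0.0678). PAG1, the membrane anchor of CSK, was 7.39-fold higher and CSK itself 2.17-fold higher (limma adjusted p = 0.0218 and 0.0469). Of 32 other genes of the phosphatase superfamily, 27 were kept, 1 rose and 4 fell. The median difference was -0.20, or 0.46 with the shift to all spiked controls and -0.76 without bioC. PTP4A2 rose and was 1.66-fold higher at 72 h. CDC25A, which activates cyclin-dependent kinases, was 2.70-fold lower, the myotubularin MTMR2 2.16-fold lower and the mitochondrial PTPMT1 2.04-fold lower, and EYA1 fell with a last value below the filter.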

How the data were processed

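The authors deposited log2 values per probe set, 1 column per array, made with RMA per the submitters' processing notes. The RMA version and genome build were not given in the sources. RMA makes array distributions alike and would hide a common shift of most transcripts. Of 54675 probe sets, 41091 with 1 gene in the platform annotation and no control role were used, 1801 had several genes and 11777 none. Symbols of 41037 were updated through Entrez identifiers to GRCh38.p14. Gene choice, filter, limma 3.58.1 (R 4.3.3, lmFit and eBayes with an intensity trend) and thresholds were as described above. A fold with an end below 3.66 was computed with that end at 3.66 and is given as at least that value. In simulated data with 13594 genes the trend fit recovered 56 of 100 changed genes with a slope of 0.3 and 93 of 100 with 0.6, with 8 false calls each. In the real data 1132 genes rose and 1341 fell, far more than the 100 changed in the simulation. Its recovery and false calls therefore need not hold for the calls here. The members, lists and tests were chosen with earlier results of these data known. Values by time are given for members with a called trend or a 2-fold difference at any time and for DUSP1, DUSP6, PTPN6, PTPN11, PTPRC and PTPRE, and ranges for PTPN1 and PTPN2, named by the same rule. Of the other lists, up to 4 called genes by size at 72 h are named, and ETV4, GAB2, GAB3, PTP4A2, FYN and MATK were added after their values were seen. The number of arrays limits the precision, and p-values test a slope against the scatter of 6 single arrays about the line.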

Additional observations from a re-analysis of the deposited data

Results flagged for a closer look

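PTPRN2-AS1, an antisense gene of the PTPRN2 locus that the choice by symbol left out, had a signal well above its untreated level. It read 3.93, 6.41, 7.41, 7.47, 8.05 and 8.28 (log2) at 0, 4, 12, 24, 48 and 72 h. It was 20.5-fold higher at 72 h than in untreated cells and rose by 0.76 ± 0.14 per step (SE, limma adjusted p = 0.0124). PTPRN2 itself was 1.99-fold lower at 4 h and 1.33-fold higher at 72 h than in untreated cells. No other symbol left out was both above the filter and 2-fold higher at 72 h.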

How the results depend on the processing

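DUSP5, DUSP6, PTPN22, PTPN6, PTPRC and DUSP3 kept their calls in all 6 fits with an array left out. With an array left out, 5 to 8 members rose and 1 to 3 fell, with the fewest falling without the 72 h array. DUSP1 lost its call without 4, 12 or 72 h (adjusted p up to 0.119). With log2(hours + 1) in place of time order, 2 rose (PTPN22 and PTPN6) and 1 fell (DUSP3). With the bioC level as covariate 5 rose and 5 fell, and DUSP1 and PTPN11 were not called. Within the 4, 24, 48 and 72 h arrays 4 rose (DUSP6, PTPN22, PTPRC and PTPRE) and 0 fell. The share of all genes called was not taken for that fit or for any other setting in this section except the main one. Counts of members under those settings, before and after this point, therefore have no background and are not results about the members. In the fit over all 6 arrays, 16 of 44 members (36.4%) and 32.7% of all genes had an unadjusted p under 0.05. That is another fit and threshold. Shifting arrays to equal hybridisation controls moves every gene by 0.71, -0.15, 0.83, 1.0 and 0.66 at 4, 12, 24, 48 and 72 h with all 18 controls, and by -0.41, -0.08, -0.48, -0.36 and -0.56 without bioC. With these shifts in turn 0 and 8 members fell by trend, while all 6 rising members rose under both. With all controls, members 2-fold higher at 4, 24, 48 and 72 h numbered 14, 22, 23 and 16, and members lower 1, 0, 0 and 1. Without bioC they were 0, 0, 4 and 5 higher and 8, 6, 5 and 11 lower. With the mean of all probe sets 0 were higher and 0 lower at 4 h, 1 lower at 12 h, and 1 higher and 0 lower at 24 h. With cyclic loess 2 were higher at 12 h and 2 lower at 72 h. At 1.5-fold, 2, 4, 10, 9 and 13 were higher at 4, 12, 24, 48 and 72 h, and 8, 5, 6 and 9 were lower at 4, 24, 48 and 72 h. Against the 4 h array, a baseline chosen after seeing the data as was the fit within 4 arrays, 0 were lower at 24 h and 1 at 48 h. The causes were not tested. Of 304 slopes of single members under other settings 251 kept direction and side of the threshold, 34 lost a call, 7 gained one and 12 uncalled slopes changed sign. No called slope and no 2-fold difference at 4 or 72 h changed sign. No paired analysis was possible because each time has 1 array and the labels give no replicate numbers.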
